A study of Drosophila melanogaster with 2 samples.

Results

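Bgb-eGFP peaks were examined at the genes for the subunits of the proteasome. The genes were taken by name, as the protein-coding genes of the Ensembl annotation of the Drosophila melanogaster genome (BDGP6, the same assembly as dm6) whose symbol begins with Prosalpha, Prosbeta, Rpn or Rpt and a digit. This gave 48 of 13968 protein-coding genes. They fell into 32 genes of the ubiquitous subunits and 16 paralogs whose symbols carry a T or an R after the subunit number. The ubiquitous genes comprised 14 of the core particle, 10 of the base and 8 of the lid.

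The measurements were chromatin immunoprecipitation followed by sequencing (ChIP-seq) of sonicated chromatin from embryos 0 to 24 h old. Both libraries came from 1 group, biological replicates 1 and 2 of a Bgb-GFP strain with an insertion targeting Bgb, in which Bgb was expressed as a fusion to enhanced green fluorescent protein (eGFP). The labels differ on the antibody, since their free text names GFP and their antibody entry names Bgb. No second condition was given, control libraries were not analysed here, and whole embryos mix all cell types of a day of development. Adult testis is not part of this material. A fraction of cells binding strongly and all cells binding weakly cannot be told apart in such a mixture.

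The proteasome degrades proteins tagged with ubiquitin. Its barrel-shaped core particle is built from rings of alpha subunits, which gate the entrance, and rings of beta subunits, among them the proteases Prosbeta1, Prosbeta2 and Prosbeta5. The regulatory particle caps the core: its base holds the ring of Rpt ATPases that unfold substrates and the subunits Rpn1, Rpn2, Rpn10 and Rpn13, and its lid holds the deubiquitinase Rpn11 among scaffold subunits. In Drosophila several subunits have a second gene whose product is made mainly in the male germ line. Bgb (Big brother) is the fly homolog of CBF-beta, a partner of the Runt domain transcription factors that does not bind DNA by itself.

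Ubiquitous subunit genes carried a promoter peak in 24 of 32 cases (75.0%), and the T or R paralogs in 2 of 16 (12.5%). A gene was counted when the summit of a peak in the conservative list, the stricter of the lists compared between replicates, lay within 1000 bp of one of its transcription start sites (TSSs). By that rule 26 of the 48 genes (54.2%) had a peak, against 33.6% of all protein-coding genes. The core stood at 10 of 14 (71.4%), with 5 of 7 in each of the alpha and beta rings. The base stood at 7 of 10 (70.0%), made up of 4 of 6 ATPases and 3 of 4 other subunits, and the lid at 7 of 8 (87.5%). With 8 to 14 genes in a group, 1 or 2 genes make up the difference between core, base and lid, while the paralogs lay below the share of all genes. The members' share was the same in the second, less strict list of the series, with 26 of 48 against 40.8% of all genes, and in the list of replicate 1 alone, with 26 of 48 against 39.7%. In the list of replicate 2 alone it was 22 of 48 against 26.0%, with all 22 among the ubiquitous genes.

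**Figure D1:**
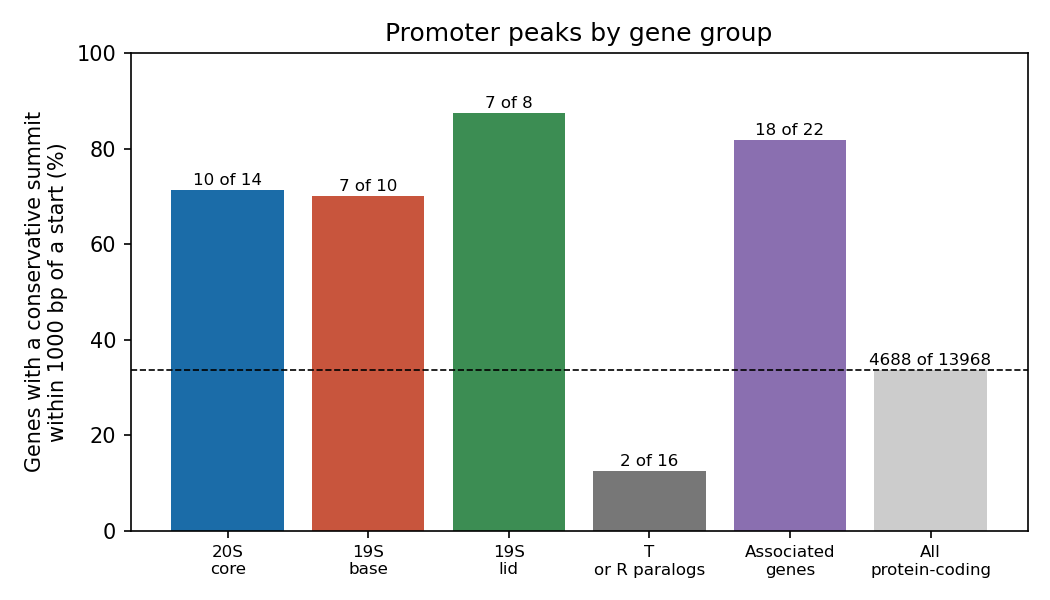
Share of genes in each group with a conservative summit within 1000 bp of a start, in percent, with the counts printed over the bars; the dashed line marks the 33.6% of all protein-coding genes. The 3 ubiquitous groups and the associated genes stand above the line and the T or R paralogs, at 12.5%, below it.

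The sequence under the summits is shown here because it divides the bound subunit genes into those with and those without the words CGATAA or CGATAG, which the insulator protein BEAF-32 binds. Each run covers 50 bp to either side of the summit on dm6, is printed 5′ to 3′ in the direction in which the named gene is transcribed, and has both words and their reverse complements in capitals. The first 7 are ubiquitous subunits that hold the word, in descending order of signal within base, lid and core. Prosbeta7 is a ubiquitous subunit without it, and the last 2 are the bound paralogs, 1 with it and 1 without.
Rpn10, chr3L:21536958-21537058, plus strand: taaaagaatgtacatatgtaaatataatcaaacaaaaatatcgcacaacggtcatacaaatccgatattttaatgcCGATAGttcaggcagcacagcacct
Rpn2, chr3R:29153421-29153521, plus strand: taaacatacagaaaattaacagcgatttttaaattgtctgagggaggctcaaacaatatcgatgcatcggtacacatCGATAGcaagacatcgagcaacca
Rpt5, chr3R:23752798-23752898, plus strand: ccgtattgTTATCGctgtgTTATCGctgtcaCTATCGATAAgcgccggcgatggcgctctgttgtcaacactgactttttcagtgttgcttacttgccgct
Rpt6, chrX:21315977-21316077, plus strand: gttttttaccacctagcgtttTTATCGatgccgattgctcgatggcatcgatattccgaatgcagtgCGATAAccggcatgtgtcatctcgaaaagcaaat
Rpt3, chrX:11124695-11124795, plus strand: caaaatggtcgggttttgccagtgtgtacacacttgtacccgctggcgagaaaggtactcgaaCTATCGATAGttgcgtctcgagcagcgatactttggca
Rpn12, chr3L:16582923-16583023, plus strand: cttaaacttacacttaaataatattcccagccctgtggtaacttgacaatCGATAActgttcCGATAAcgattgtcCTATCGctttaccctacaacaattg
Prosbeta6, chr3L:16610410-16610510, minus strand: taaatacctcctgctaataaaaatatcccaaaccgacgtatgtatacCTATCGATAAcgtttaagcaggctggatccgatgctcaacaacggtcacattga
Prosbeta7, chr3R:5358141-5358241, minus strand: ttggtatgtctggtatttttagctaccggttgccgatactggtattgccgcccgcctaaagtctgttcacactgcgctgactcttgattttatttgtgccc
Prosbeta2R2, chr3R:5219586-5219686, minus strand: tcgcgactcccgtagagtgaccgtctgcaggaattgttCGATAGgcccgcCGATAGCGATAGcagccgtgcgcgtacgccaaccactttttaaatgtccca
Rpt3R, chr3R:9756283-9756383, minus strand: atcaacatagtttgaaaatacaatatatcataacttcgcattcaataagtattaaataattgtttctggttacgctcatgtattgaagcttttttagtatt
Rpt5 holds 4 matches, the most of any member, a pair of which overlap on opposite strands in CTATCGATAA. Rpn12 holds 3 matches, and the paralog Prosbeta2R2 also holds 3, a pair of them adjoining. The window of Prosbeta7 has none.

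Within the core particle the strongest signal was at an alpha subunit. The signal is the authors' value for a peak, in the units of their peak caller, and it ranks peaks within a list. Prosalpha7, a subunit of the gating ring, had a signal of 1197 in the conservative list, 715 in replicate 1 and 483 in replicate 2, with the peak on 2R from 9847696 to 9848035. Its rank was 31 of 4488 peaks. Of the other bound alpha genes, Prosalpha4 had 232 (replicate 1 125, replicate 2 104) and Prosalpha5 had 204 (139 and 59.4). Prosalpha3 had 185 (131 and 70.0) and Prosalpha6 had 137 (100 and 52.2). The alpha genes thus ranged from 137 to 1197 around a median of 204, with Prosalpha7 alone far above the rest in both replicates.

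The 3 genes of the catalytic beta subunits were all bound, with signals of 314 to 437 for the strongest peak within 1000 bp. Prosbeta1, the caspase-like protease, had 437 (255 and 183), although its summit lay nearer to the TSS of the neighbour Rrp42, at 36 bp, than to its own at 85 bp. Prosbeta5, the chymotrypsin-like protease, had 352 (222 and 128). Prosbeta2, the trypsin-like protease, had 314 (189 and 103), with the summit 102 bp from the neighbour mRpL39 and 183 bp from its own TSS, and a second peak of 61.7 at its own TSS. The structural subunits Prosbeta7 and Prosbeta6 had 225 (127 and 101) and 120 (67.9 and 57.5). These lay below the strongest peaks of the catalytic genes but above the second peak of Prosbeta2. In replicate 2 the values of Prosbeta2 and Prosbeta7, 103 and 101, lay within 2 units of each other, so the order of these genes rests mainly on replicate 1. Prosbeta3 and Prosbeta4, also structural, had no conservative peak.

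In the base, the ubiquitin receptor Rpn10, which sits between base and lid and is counted with the base here, had 874 (509 and 367) and ranked 86, with its peak on 3L from 21536871 to 21537153. Rpn2, the scaffold to which the receptor Rpn13 attaches, had 501 (351 and 143). Rpn1, the scaffold that receives shuttle proteins, had 119 (61.3 and 59.0). The non-ATPases thus spanned both ends of the base, and Rpn1 was in the thresholded list of replicate 2 but not in that of replicate 1. The bound ATPase genes lay closer together, from 195 to 372. Rpt5 had 372 (198 and 180), with the summit 14 bp from the neighbour RanBP3 and 28 bp from its own TSS. Rpt1 had 342 (232 and 109) and Rpt6 had 248 (158 and 91.8). Rpt3 had 195 (130 and 86.5) from a summit at -356 bp that lay 19 bp from the TSS of CG11122, and a second peak of 101 at 18 bp upstream of its own TSS. Replicate 2 placed Rpt5 above Rpn2, whereas replicate 1 placed Rpn2 well above Rpt5.

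Among conservative peaks, the lid held both the strongest and the weakest signal of the ubiquitous subunits. Rpn6, a scaffold subunit that contacts the core, had 1890 (1157 and 732) with the peak on 2R from 14752186 to 14752580, and only 1 of the 4488 peaks was stronger. Rpn12 had 244 (142 and 102) and Rpn5 had 138 (75.6 and 68.2), the latter from a summit 383 bp upstream of Rpn5 and 36 bp from the histone acetyltransferase gene Hat1. Both encode scaffold subunits. Rpn8, the inactive partner of the deubiquitinase, had 110 (77.3 and 39.1), but its summit lay 45 bp from the TSS of the kinase gene Slik. It lay in an intron of Rpn8, between its 2 annotated starts and at -666 bp from the inner one. Rpn3 had 88.6 (41.5 and 41.8), Rpn11, the deubiquitinase itself, 82.3 (40.7 and 38.5) and Rpn9 76.8 (63.4 and 25.4). These 3 genes lay near the bottom of the promoter peaks, with 12.1% to 19.3% of the 3788 conservative promoter peaks below them, and each was missing from the list of 1 replicate. By the 1000 bp rule the lid therefore had the highest share of bound genes but the lowest median signal, 110, against 229 for the core and 342 for the base. The median over all bound genes was 183. The order of the shares depended on the rule. With peaks required to overlap the TSS, the lid had 4 of 8 genes bound. The core then had 9 of 14 and the base 7 of 10. With each peak assigned to its nearest TSS alone, the lid had 5, the core 9 and the base 6. Without Rpn6 the bound lid genes spanned 76.8 to 244, inside or below the range of the core.

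**Figure D2:**
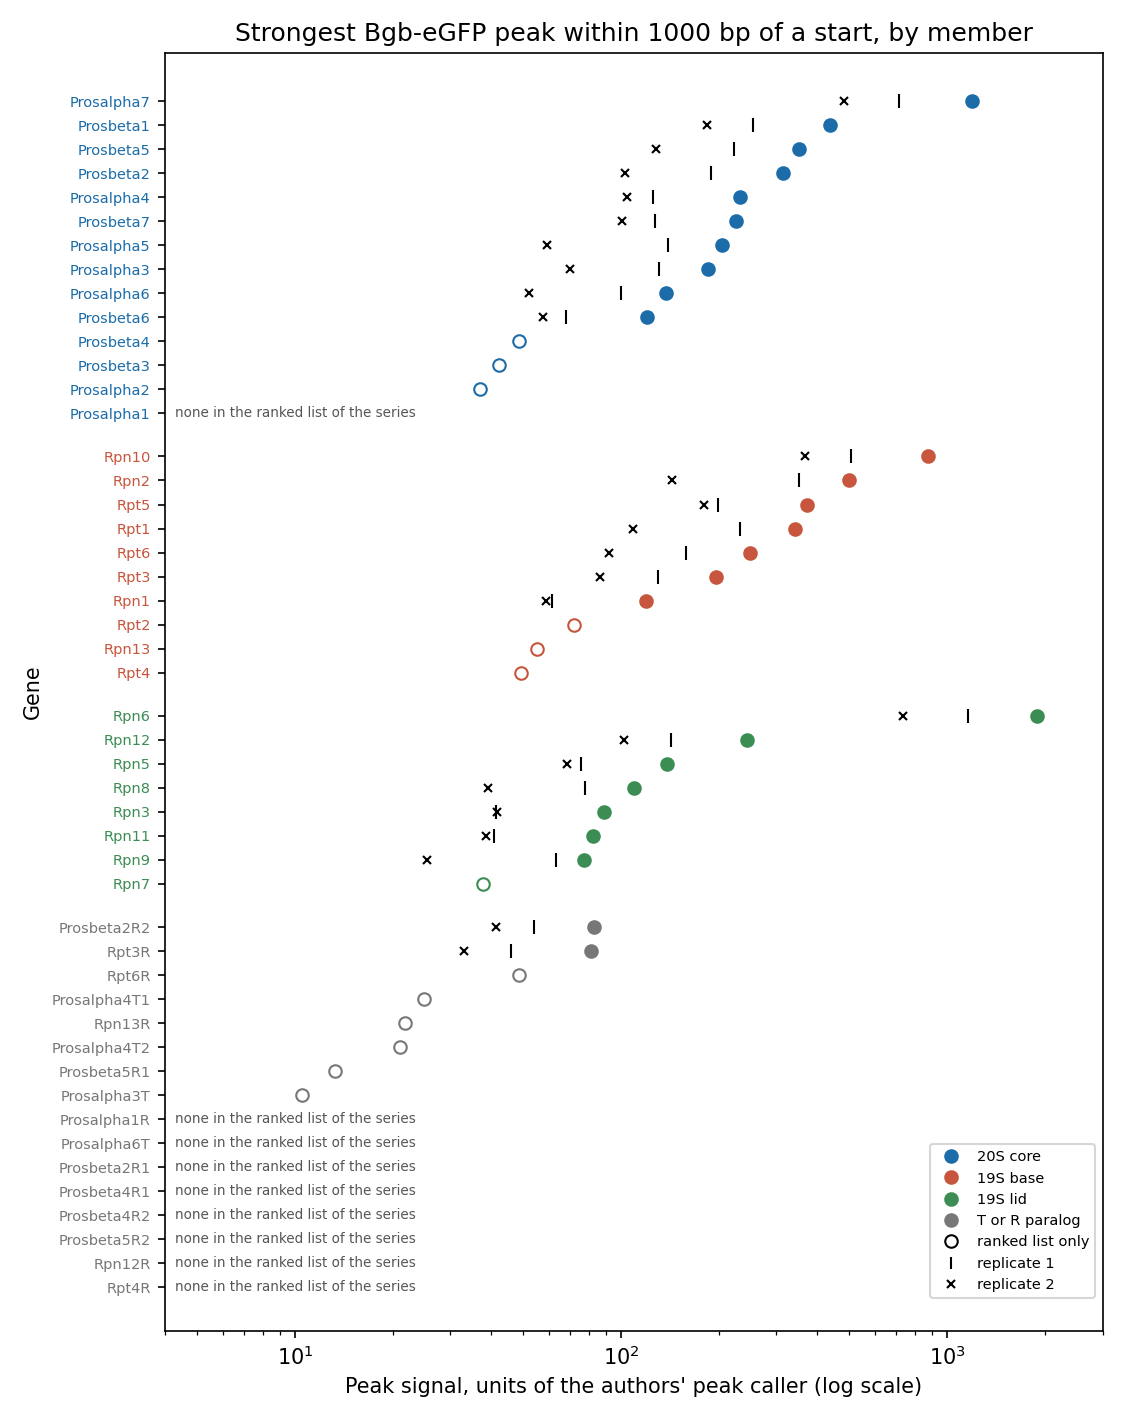
Signal of the strongest peak within 1000 bp of a start for each of the 48 genes, on a log axis in peak caller units; filled circles are conservative peaks, open circles are peaks of the ranked list without a threshold, bars are replicate 1 and crosses replicate 2. Rpn6, Prosalpha7 and Rpn10 lead their groups, and the T or R paralogs end at 82.6, with 8 of them without a peak in the ranked list of the series.

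The replicates ordered the bound members alike but on different levels. Replicate 1 ranged from 40.7 to 1157 with a median of 130, and replicate 2 from 25.4 to 732 with a median of 89.2. Replicate 1 was higher at 25 of 26 genes, the exception being Rpn3, and the log2 ratio of the replicates had a median of 0.52 with an SD over genes of 0.40 (n = 26) and a range of -0.01 to 1.32. Any scaling between the libraries is not stated, so this offset is given as a description. Spearman's rho was 0.92 over the 26 genes, whose peaks share the same pair of libraries and were selected for agreement between them. The thresholded lists of both replicates held 20 of the members. Replicate 1 alone held Rpn3, Rpn9, Prosbeta2R2 and Rpt3R, and replicate 2 alone held Rpn1 and Rpn11. These 6 were among the 7 members with the lowest signal.

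**Figure D3:**
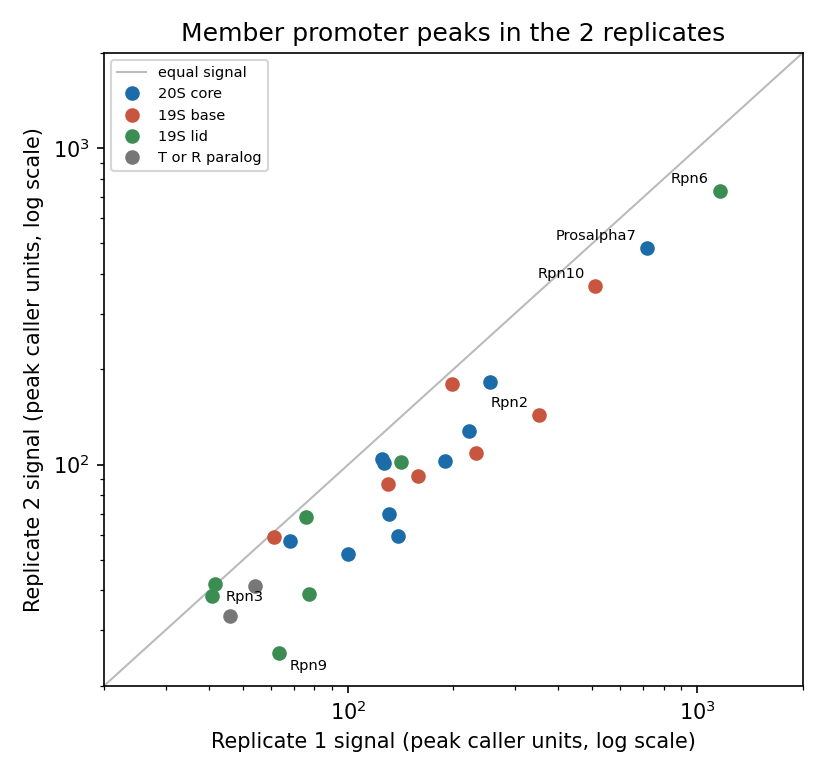
Signal in replicate 2 against replicate 1 for the 26 members with a conservative promoter peak, both on log axes in peak caller units, with the line of equal signal. All but Rpn3 lie below the line, and Rpn9, at 63.4 and 25.4, lies farthest from it.

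The summits sat close to an annotated start and mostly upstream of it. The median distance of the strongest summit from the nearest of the member's own TSSs was 50.5 bp, and 19 of 26 (73.1%) lay within 100 bp, against 67 bp and 60.5% over all bound protein-coding genes. Upstream summits made up 24 of 26 (92.3%), against 80.0% of all bound genes. The exceptions were Rpn10, at 8 bp downstream, and Rpn9, at 63 bp downstream. Because genes can have several starts, 4 of the upstream summits still lay inside the member's own gene: those of Rpn6, Rpn8 and Rpt3R in introns and that of Prosbeta7 in an untranslated exon. The member's own TSS was the nearest protein-coding one in 19 of 26 cases (73.1%), against 68.7%. The other 7 were Prosbeta1, Prosbeta2, Rpt3, Rpt5, Rpn5, Rpn8 and the paralog Prosbeta2R2. At these genes the strongest peak cannot be assigned to the subunit gene rather than to its neighbour. Prosbeta2 and Rpt3 also had a weaker peak nearest to their own TSS, of 61.7 at 32 bp and of 101 at 18 bp. Prosalpha3, Prosalpha5, Prosalpha6, Prosbeta2 and Rpt3 had 2 peaks each, with the weaker one at 60.3 to 101. At Prosalpha3 and Prosalpha6 the weaker peak was nearest to the neighbours dgt3 and Npc1a.

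**Figure D4:**
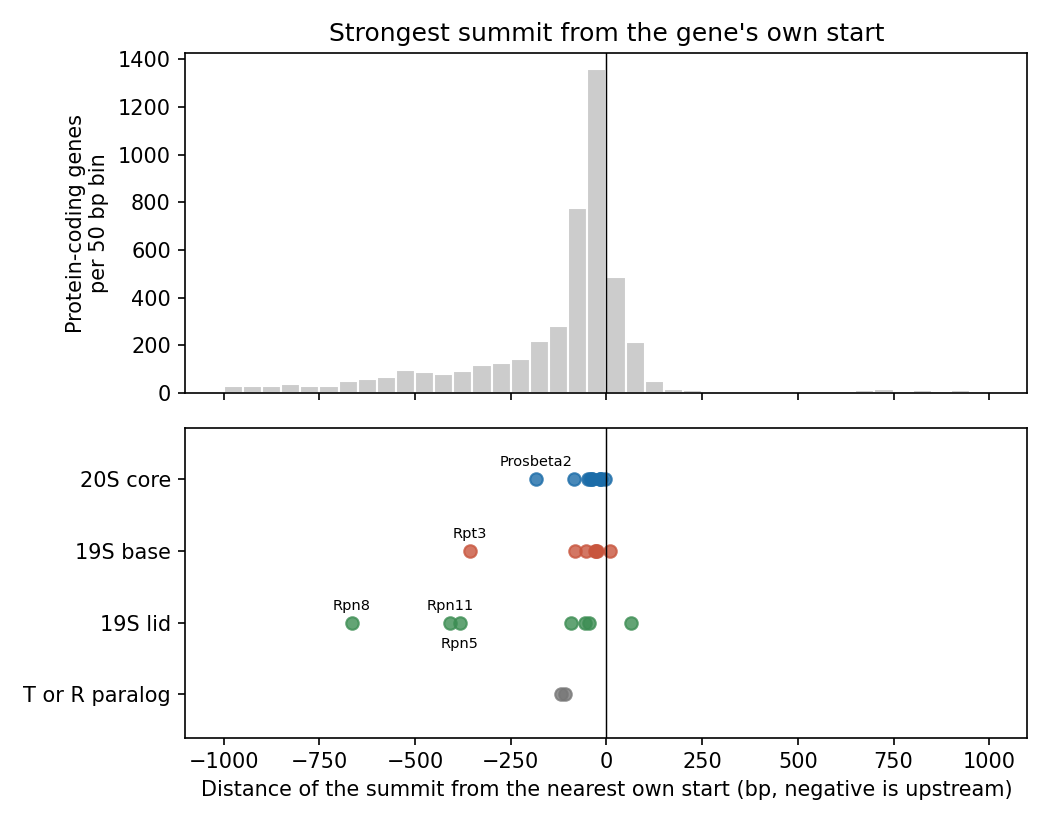
Distance of the strongest summit from the gene's own start in bp, negative upstream, for all bound protein-coding genes (top, genes per 50 bp bin) and for the 26 bound members by group (bottom). Most members cluster just upstream of their nearest annotated start, and the named ones, out to Rpn8 at -666 bp, lie more than 150 bp away.

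The 8 ubiquitous genes without a conservative peak came from every subcomplex: Prosalpha1, Prosalpha2, Prosbeta3 and Prosbeta4 of the core, Rpt2, Rpt4 and Rpn13 of the base, and Rpn7 of the lid. Their nearest conservative summit was 2218 to 13912 bp away, with a median of 3650 bp. The ranked list, which holds a peak that close to most genes, had one within 1000 bp at 7 of them, from 37.0 at Prosalpha2 to 71.8 at Rpt2, with 42.2 at Prosbeta3 and 55.4 at Rpn13, and no peak at Prosalpha1. Every one of these values was below the weakest conservative signal of a bound member, 76.8 at Rpn9. That value is no floor of the conservative list, whose lowest signal was 2.08. Signal alone therefore did not separate the listed peaks from the unlisted ones. Rpt2 and Rpn13 were in the list of replicate 1 alone, at 52.4 and 53.8. A protein-coding neighbour starting within 1000 bp in the opposite direction was present at 7 of the 8, all but Prosalpha2. Over the 32 ubiquitous genes, 12 of the 19 with such a divergent neighbour were bound (63.2%) and 12 of the 13 without one (92.3%), whereas over all genes 55.0% and 21.9% were bound. This split was made after the values were seen and was not tested.

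Start regions of 3 ubiquitous genes without a conservative peak are printed for contrast, from 50 bp upstream to 50 bp downstream of the TSS on dm6 in the direction of transcription. Capitals here mark another set of words, those of core promoter motif 6 (AGTATATTT or AGTATTTTT, with GGTATATTT or GGTATTTTT, and their reverse complements), which were added to the search after these sequences were seen.
Prosbeta4, chr2L:16732083-16732183, minus strand: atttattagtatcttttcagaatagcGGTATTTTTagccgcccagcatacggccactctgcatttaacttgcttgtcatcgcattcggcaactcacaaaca
Rpt4, chrX:6291195-6291295, minus strand: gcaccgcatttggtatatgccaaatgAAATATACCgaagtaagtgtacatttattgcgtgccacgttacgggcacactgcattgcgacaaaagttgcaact
Rpn7, chr3R:22462004-22462104, minus strand: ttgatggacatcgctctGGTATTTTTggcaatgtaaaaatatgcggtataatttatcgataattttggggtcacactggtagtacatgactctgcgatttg
All 3 printed stretches hold a motif 6 word. The same stretches at Prosalpha2, Prosbeta3 and Rpt2, also without a conservative peak, hold none, so the printed ones do not stand for all unbound genes. Prosbeta4, with a ranked signal of 48.6, and Rpt4, with 49.5, have no CGATAA or CGATAG in their promoter window. Rpn7, with 37.7, has a motif 6 word and, in lower case, a palindrome that holds CGATAA on both strands just downstream of its start. A promoter with the BEAF-32 word was thus not always one with a conservative peak.

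The T or R paralogs had weak peaks or none in the ranked list of the series. Prosbeta2R2, a paralog of the trypsin-like protease gene, had 82.6 (54.2 and 41.3), and Rpt3R, an ATPase paralog, had 81.1 (45.9 and 33.1), against 314 and 195 for the strongest peaks of Prosbeta2 and Rpt3. Those peaks lay nearest to neighbours, and the peaks nearest to the TSSs of Prosbeta2 and Rpt3 themselves had 61.7 and 101, the former below the value of Prosbeta2R2. The summit at Prosbeta2R2 lay 21 bp from the neighbour CG1116 and 108 bp from its own TSS, whereas that of Rpt3R was nearest to Rpt3R itself, 119 bp upstream. Neither was in the list of replicate 2. A further 6 paralogs had a peak of the ranked list within 1000 bp, namely Rpt6R at 48.6, Prosalpha4T1 at 24.9, Rpn13R at 21.7, Prosalpha4T2 at 21.0, Prosbeta5R1 at 13.3 and Prosalpha3T at 10.5. No peak of that list was within 1000 bp of the other 8 of 16, against 18.0% of all protein-coding genes and 1 of 32 ubiquitous genes. These 8 were Prosalpha1R, Prosalpha6T, Prosbeta2R1, Prosbeta4R1, Prosbeta4R2, Prosbeta5R2, Rpn12R and Rpt4R. The ranked lists of single replicates held weak peaks at Prosbeta2R1, of 11.5 in replicate 2, and at Rpt4R, of 3.58 in replicate 1 and 5.94 in replicate 2. The nearest conservative summit to an unbound paralog was 5757 to 69309 bp away, with a median of 32206 bp.

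The paralogs differed from the ubiquitous genes in other features of the annotation too. They had a divergent protein-coding neighbour in 3 of 16 cases (18.8%), against 19 of 32 (59.4%) and 35.2% of all genes, and 6 of 16 (37.5%) had a single exon, against 4 of 32 (12.5%) and 15.3%. The part of these features in the difference in peaks was not tested. Prosalpha1 and Prosalpha1R, both on 2R, were a special case: their coding sequences were identical over 732 bp, and 98.3% of the 1000 bp to either side of their starts agreed. Neither had a ranked peak in any list. Reads from such copies may not be placed uniquely, how the authors treated them is not given in the sources used here, and the absence of a peak at this pair is uncertain. In the other 15 pairs the coding sequences were 50.7% to 77.6% identical, with Rpt6R and Rpt6 the closest.

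The words CGATAA and CGATAG were in the summit windows of 17 of the 26 bound members (65.4%), against 42.8% of 3788 conservative promoter peaks. The units differ, here and for the other motifs at summits. The members' share counts the strongest summit of each gene, and the other share counts every promoter peak, weaker ones included. By group, 7 of 7 base genes, 6 of 10 core genes and 3 of 7 lid genes held a word in the summit window, together with the paralog Prosbeta2R2. The windows of Rpt3, Rpt5, Prosbeta1, Rpn5 and Prosbeta2R2 were among these, though their summits lay nearest to a neighbour's TSS. The promoters of Rpt3 and Rpn5 themselves held no word. With each peak assigned to its nearest TSS alone, 13 of 21 bound members held one. The median signal was 244 over the 17 with a word and 185 over the 9 without, against 246 and 117 over all promoter peaks. The strongest member, Rpn6, had no word within 50 bp of its summit at -93 bp, but had 2 words in its promoter, 1 on either side of that window. Prosalpha7 had 3 in its summit window. With 100 bp to either side, 20 of the 26 members held a word. TATCGATA, the sequence of DREF, a factor of replication genes, was in 8 of 26 windows (30.8%, against 17.5%). Where A or G follows it, or T or C precedes it, the same bases also count as a BEAF-32 word. Core promoter motif 7, searched as CANCNCTA, was in 5 of 26 (19.2%, against 12.9%), and motif 6 in 1, that of Prosbeta7, against 2.3%.

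Each of 4 other motifs was in 0 of the 26 windows. They were GGTCACAC, the sequence of M1BP (5.02% of all promoter peaks), the Runx words AACCACA or AACCGCA and GACCACA or GACCGCA, bound by the partners of Bgb (4.99%), the antioxidant response element TGACNNNGC, bound in flies by Cnc with Maf-S (4.41%), and GAGAGAG, bound by GAGA factor (1.9%). The highest of these background shares corresponds to about 1 of 26 windows. Both strands were searched for all 8 motifs, and the antioxidant response element can share bases with the reverse complement of GGTCACAC. A match is a string of letters and not a site.

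Promoter windows from 250 bp upstream to 50 bp downstream of a TSS were counted as well. For bound genes with several starts the TSS nearest to the strongest summit was used, and for unbound genes the outermost one. The choice of window thus differed between bound and unbound genes. BEAF-32 words were in 17 of 24 bound and 3 of 8 unbound ubiquitous promoters and in 4 of 16 paralog promoters, against 59.2% of bound and 23.7% of unbound genes overall and 35.7% of all. Of the 26 bound members together, 19 (73.1%) held one, against the same 59.2% of bound genes. TATCGATA was in 10 of 24, 2 of 8 and 1 of 16, against 23.6%, 2.63% and 9.67%. Motif 6 went the other way within the ubiquitous genes, with 3 of 24 bound and 5 of 8 unbound promoters, against 9.17%, 7.2% and 7.86%. Its words were added after start sequences of these genes were seen, so this contrast only describes them and was not tested. The unbound promoters with it were those of Prosalpha1, Prosbeta3, Prosbeta4, Rpn7 and Rpt4. At Prosalpha1 the absence of a peak is itself uncertain. GGTCACAC was in 4 of 24 and 3 of 8 ubiquitous promoters and in 0 of 16 paralog promoters, against 12.1% of bound, 5.59% of unbound and 7.77% of all genes. The antioxidant response element was in 3 of 24, 3 of 8 and 1 of 16, against 9.09%, 8.56% and 8.73%. A Runx word was in 2 of 24 (Prosalpha4 and Rpn9), 0 of 8 and 0 of 16, against 11.3% of all genes. GAGAGAG was in 0 of 24, 0 of 8 and 2 of 16, against 6.02%, 6.16% and 6.11%.

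**Figure D5:**
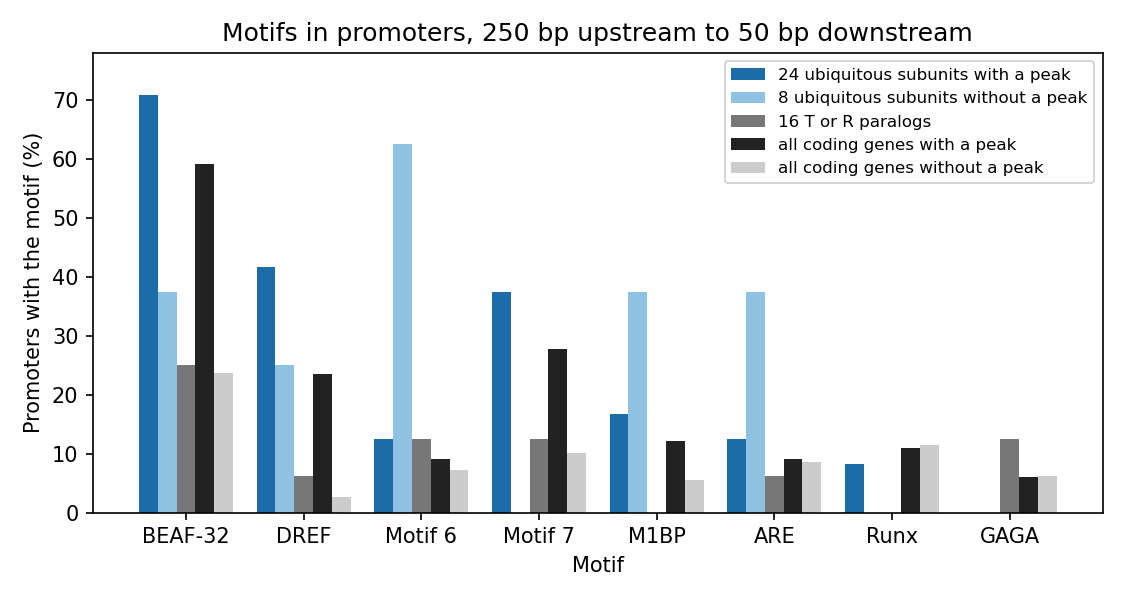
Share of promoters, in percent, that hold each of 8 motifs between 250 bp upstream and 50 bp downstream of the start, for bound and unbound ubiquitous subunits, T or R paralogs, and all bound and unbound protein-coding genes. BEAF-32, DREF and motif 7 words are more frequent in bound than in unbound promoters, both among the ubiquitous subunits and over all genes. Motif 6, added to the search after start sequences were seen, is most frequent in the 8 unbound ubiquitous promoters, a group of few genes.

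Genes that work with the proteasome were bound in most cases. Of 22 genes for assembly factors, activators, ubiquitin supply, shuttling and the Cnc pathway, 18 (81.8%) were bound, against 33.6% of all protein-coding genes, and the median signal of the bound ones was 185. TER94 and Npl4 were the strongest. TER94, the ATPase that extracts substrates from membranes and complexes, had 946 (634 and 311), and its cofactor Npl4 had 758 (483 and 281). Other cofactors of TER94 were lower, Ufd1 at 385 (233 and 141) and p47 at 196 (115 and 81.2). TER94 and Npl4 thus lay between the subunit genes Rpn2 and Prosalpha7, also within each replicate. The proteasome regulators PI31 and REG had 391 (191 and 212) and 362 (237 and 119), and PI31 was higher in replicate 2. The shuttle genes rngo and Ubqn had 451 (246 and 204) and 329 (198 and 118), whereas the shuttle gene Rad23 had no peak.

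Of the ubiquitin genes, RpL40 had 221 (136 and 83.7), Ubi-p63E had 117 (81.9 and 37.2) and Ubi-p5E had 81.6 (53.8 and 30.0), while RpS27A had no peak. Uba1, the ubiquitin-activating enzyme, had 138 (81.3 and 40.1). The assembly factor Pomp had 175 (136 and 45.5). The deubiquitinases Uch-L5 and Usp14, which sit on the regulatory particle, had 95.9 (53.9 and 42.2) and 84.8 (54.9 and 33.5), and the thioredoxin-like Txl had 83.4 (61.3 and 29.4). In the pathway by which the factor Cnc is known to raise proteasome genes in flies, cnc had 104 (78.7 and 34.6) and Pngl, the glycanase, 104 (64.3 and 44.5), and maf-S had no peak. Sem1, a small lid subunit outside the naming rule, also had none. The summit was nearest to a neighbour's TSS at 7 of the 18 genes: Ufd1, REG, Ubqn, RpL40, Ubi-p63E, Usp14 and Txl. The list was drawn up with earlier results of these data known and is described by its counts only.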

How the data were processed

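ChIP-seq peak lists of 2 libraries, biological replicates of 1 group, were used as deposited, on dm6 per the labels. Each peak carries a signal that the authors computed and deposited; for its scaling, the aligner and the peak caller, the entry is the same: not given in the sources used here. Read depth is unknown. The lists were the conservative list (4488 peaks), a second series list (6393), a list per replicate (6061 and 3200) and ranked lists without a threshold.

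Summits were set against all protein-coding TSSs of Ensembl release 115, and a peak could count for several genes. Replicate signals are those of the strongest ranked peak overlapping the conservative peak; a first rule, summit inside the peak, left a member without a value. Motifs were searched within 50 bp of summits and in promoters of the RefSeq assembly sequence. Every bound member and associated gene is named, and unbound ones with their ranked signal where members. The members and lists were chosen with earlier results of these data known, the motifs after the files were seen and motif 6 after the sequences were. After the annotation was seen, Ecm29 was left out of the associated genes, since no gene matched that name, and Ufd1-like was matched as Ufd1. No test was run across genes. The counting was tested on simulated data. Alternatives covered the list, window, TSS rule, stronger peaks, motif window and each replicate alone. Python 3.11.15, numpy 2.4.6, pandas 2.3.3, Biopython 1.88 and matplotlib 3.10.9 were used.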

Additional observations from a re-analysis of the deposited data

How the results depend on the processing

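Over 11 other settings, 93 values were recomputed for 10 results, and 81 stayed within 1.5 times the count or within the spread of the replicates. Most of the 12 that moved did so with the stronger 50% of peaks. There 16 members were bound (33.3%, against 20.5% of all genes), with 0 paralogs, 2 lid genes, 10 associated genes, 12 members with their own TSS nearest, 11 with a BEAF-32 word in the summit window and a median signal of 328. Each peak assigned to its nearest TSS alone left 1 paralog, and peaks required to overlap the TSS left 4 lid genes. The nearest TSS rule also lowered counts that stayed within 1.5 times. Under it 21 members were bound (43.8%, against 24.6% of all genes), with 20 ubiquitous genes and 12 associated genes. With 1 replicate left out, the paralogs with a peak numbered 0 (without replicate 1) to 2, and the median signal was 102 (without replicate 1) to 130 (without replicate 2), on the scale of each list. The members bound numbered 22 without replicate 1 and 26 without replicate 2, where Rpn13 and Rpt2 were gained and Rpn1 and Rpn11 lost. Both bound paralogs and the weak lid genes therefore rest on the list and the replicate. Read depth is unknown, which limits what can be said of genes without a peak, and 2 replicates give no test.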
